A study of Mus musculus with 8 samples.

Results

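The 10 genes described here are 8 ligands of the tumour necrosis factor (TNF) superfamily (Tnf, Cd70, Tnfsf4, Tnfsf9, Tnfsf10, Tnfsf13b, Tnfsf14 and Tnfsf15) and the receptors Cd40 and Tnfrsf9, measured in mouse dendritic cells before and after lipopolysaccharide (LPS). They were chosen within the superfamily with earlier results of these data known, and are not the whole family. The ligand genes Ltb, Lta, Tnfsf8 and Tnfsf12 were tested but lie outside the 10. Of these Ltb fell and none was called higher. All probes whose RefSeq transcript belongs to the 10 genes were taken: 11 probes of 27509 with a gene symbol, for 10 genes of 20887. LPS comes from the cell wall of Gram-negative bacteria and is sensed through Toll-like receptor 4. Monocytes derived from bone marrow of female C57BL/6 mice had been kept in GM-CSF at 10 ng/ml with IL-4 for 6 days, which gave 4 samples of immature dendritic cells. The 4 mature samples were such immature cells given LPS at 50 ng/ml overnight and collected on day 7, and no cells kept to day 7 without LPS were analysed here. The labels do not say whether the 4 samples of a group came from separate animals or cultures, so the p-values measure the spread between these samples, which may be technical.

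TNF superfamily ligands are mostly membrane proteins that act as trimers, and several are also cut from the surface. Their receptors recruit TRAF adaptors, which lead to NF-kB, or death-domain adaptors, which lead to caspases. On dendritic cells, the ligands CD70, OX40L (Tnfsf4) and 4-1BBL (Tnfsf9) give costimulation to T cells, while CD40 receives the signal of helper T cells.

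Of the 10 genes, 7 rose after LPS and Tnfsf14 fell, while Tnf and Tnfsf9 did not pass the test. The receptor gene Cd40 and the CD27 ligand gene Cd70 rose most, 7.52-fold and 7.64-fold. The 7 rises stand against 31.4% of all 12707 tested genes called higher, and the 1 fall against 24.6% called lower; in either direction 56.0% of all tested genes were called. All 7 rises were at least 2-fold, beside 9.16% of all tested genes called higher at that size, with Tnfrsf9 at the limit (1.00 log2). Tnfrsf9 was under 2-fold, at 0.79 to 0.95 log2, with arrays scaled by their median, by the 75th percentile of bright probes, by quantiles or not at all, with normexp, and with array weights, which left 6 genes at that size. It was also under 2-fold, at 0.94 to 0.98 log2, without immature replicate 1 or 3 or LPS replicate 3 or 4. The median log2 fold change of the 10 genes was 1.72, beside 0.06 for all tested genes. The groups did not overlap for 8 of the 10 genes, beside 52.3% of all tested genes: 7 had every LPS array above every immature array, beside 30.1% of all tested genes, and 1 had them below, beside 22.2%. Without immature replicate 3, an array that stood apart, 8 genes were called higher, with Tnfsf9 added, and 1 lower, Tnf in place of Tnfsf14. Calls were made with limma, a linear model with moderated variances fitted across all genes, at a Benjamini-Hochberg adjusted p of 0.05. Values are log2 signals relative to the 75th percentile of each array, so a value of 0 equals that percentile.

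**Figure D1:**
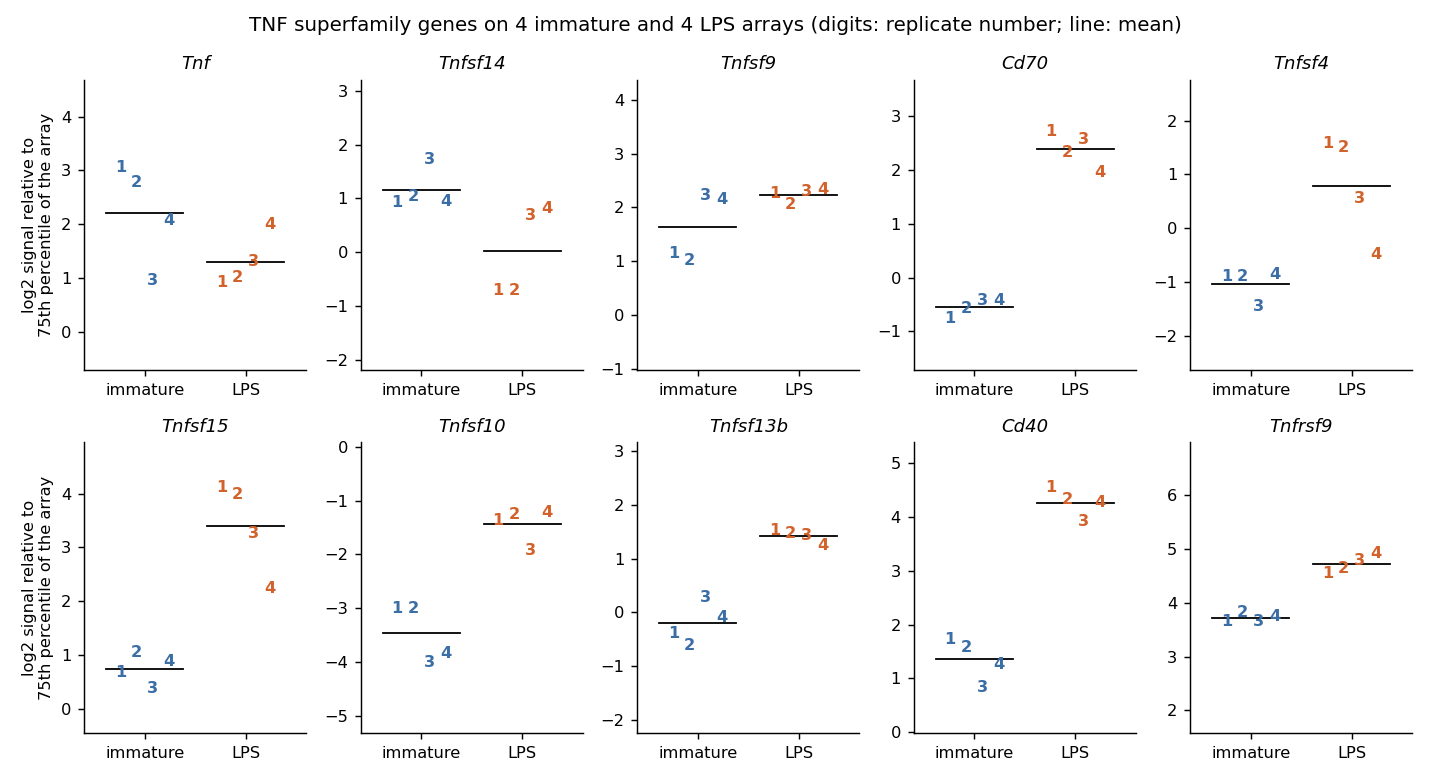
Each panel plots 1 gene, with the log2 signal relative to the 75th percentile of the array on the vertical axis over an equal span in every panel, digits for the replicate number and a line for the group mean. The LPS arrays sit wholly above the immature arrays for 7 genes and below them for Tnfsf14, while Tnf and Tnfsf9 overlap.

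All 10 genes were well above background on all 8 arrays, so none entered the test through 1 group alone. The arrays had 59305 spots outside the controls, of which 47.7% to 51.3% per array were well above background, and no spot was saturated. The number of arrays limits the precision, and log2 fold changes had a median SE of 0.12 over all tested genes and 0.28 over these 10. The 8 arrays lay on 1 slide, per the file headers, with the immature samples in 1 row and the LPS samples in the other, so slide row and treatment cannot be told apart. Replicates 1 and 2 were closer to each other than to the rest of their group, with a median absolute difference over all tested genes of 0.0803 log2 in the immature and 0.0939 log2 in the LPS group. The other pairs of arrays differed by between 0.136 and 0.297 log2. Immature replicate 3 stood apart: it was the lowest or highest immature array for 75.2% of all tested genes and for 10 of the 10 genes described here. LPS replicate 4 was at an end of its group for 61.0% of all tested genes and for 9 of these 10. All 10 dendritic cell markers, among them Itgax, Flt3 and Zbtb46, were well above background in at least 1 group. Of these 5 rose and 3 fell, with a summed signal, in units of the 75th percentile, of 1010 to 1090 on the immature and 825 to 985 on the LPS arrays. Cd74, a marker that fell, had a mean of 421 before and 307 after LPS in the same units. Without Cd74 the sums overlapped, at 606 to 643 before LPS and 550 to 658 after it. Itgax, the gene of CD11c, fell by 0.99 ± 0.10 log2 (SE; limma adjusted p = 8.63e-05). Flt3 rose by 2.65 ± 0.18 log2 (SE; limma adjusted p = 1.23e-05) and Zbtb46 by 0.71 ± 0.19 log2 (SE; adjusted p = 0.0129).

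Among the costimulatory ligands, Cd70 gave the clearest separation. Its product binds CD27 on T cells and drives their expansion. Cd70 read -0.75, -0.57, -0.42 and -0.43 in immature replicates 1 to 4, and 2.71, 2.32, 2.57 and 1.96 in LPS replicates 1 to 4. The immature arrays thus lay within 0.33 log2 of each other and every LPS array was far above them, with LPS replicate 4 the lowest. The rise was 2.93 ± 0.17 log2 (SE; 4 arrays a group, limma adjusted p = 4.54e-06). In processed signal, the background-subtracted brightness of the spot, Cd70 went from between 291 and 342 to between 1630 and 2710. The receptor gene of CD70, Cd27, was not well above background on any array. Because activated T cells also carry CD70, T cell markers were read beside it: the summed signal of 10 T cell markers, in units of the 75th percentile, was 11.4 to 17.1 on the immature and 21.3 to 26.1 on the LPS arrays. Most of that difference was Il7r, with a mean of 8.79 and 18.5 in the same units, and without it the sums were 4.34 to 5.07 and 5.44 to 6.12. Of 6 tested T cell markers, Lck and Il7r rose and 3 did not pass, and Cd3e had a mean of -0.58 log2 in both groups. Cd3d entered the test through the immature arrays alone. It was not well above background on any LPS array, and at least 3.1-fold lower there. The T cell genes Cd247 and Cd8b1 were not well above background on any array, and the part of T cell RNA in the Cd70 result was not tested.

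Tnfsf4, which encodes the ligand of the T cell receptor OX40, rose by 1.81 ± 0.43 log2 (SE; 4 arrays a group, limma adjusted p = 0.00729). It read -0.90, -0.90, -1.45 and -0.87 in immature replicates 1 to 4 and 1.57, 1.5, 0.55 and -0.49 in LPS replicates 1 to 4. LPS replicates 1 and 2 were high, replicate 3 lower and replicate 4 only just above the immature arrays, a 4.17-fold range within the treated group. The SD of 0.97 in the LPS group was larger than that of 99.2% of all tested genes. The rise stayed past the threshold without any 1 array, at between 1.55 log2 without LPS replicate 1 and 2.24 log2 without LPS replicate 4. The OX40 gene itself, Tnfrsf4, had 0.20 ± 0.19 log2 (SE) and did not pass (limma adjusted p = 0.410).

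Tnfsf9, the gene of 4-1BBL, did not pass, at 0.60 ± 0.28 log2 (SE; 4 arrays a group, limma adjusted p = 0.102; 95% confidence interval -0.05 to 1.25). It read 1.15, 1.02, 2.23 and 2.15 in immature replicates 1 to 4 and 2.26, 2.06, 2.30 and 2.33 in LPS replicates 1 to 4. The treated arrays were tight, whereas the immature arrays fell into a low pair, replicates 1 and 2, and a pair at the treated level, replicates 3 and 4. Without immature replicate 3 the change was 0.80 and passed (limma adjusted p = 0.0322), and with arrays weighted by their quality in limma it was 1.00 (adjusted p = 0.00110).

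Tnfrsf9, which encodes 4-1BB, the receptor of that ligand, rose on both of its probes. On the probe with the higher mean over all arrays, which stands for the gene, it read 3.66, 3.81, 3.65 and 3.75 in immature replicates 1 to 4 and 4.55, 4.64, 4.78 and 4.91 in LPS replicates 1 to 4. This was the tightest gene of the 10 in the immature group, with an SD of 0.07, and the groups did not overlap. The rise was 1.00 ± 0.09 log2 (SE; 4 arrays a group, limma adjusted p = 5.95e-05). On the other probe the rise was 1.88 ± 0.24 log2 (SE; limma adjusted p = 0.000374 over 25942 probes), and the immature arrays of that probe ranged from 2.59 to 3.60. Probe by probe, 9 of the 11 probes were called, beside 49.8% of all tested probes.

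Cd40, the receptor through which helper T cells license dendritic cells, read 1.73, 1.58, 0.83 and 1.26 in immature replicates 1 to 4. After LPS it read 4.54, 4.33, 3.91 and 4.26. Replicate 3 was the lowest of each group, and the groups were well separated. The rise of 2.91 ± 0.21 log2 (SE; 4 arrays a group, limma adjusted p = 1.58e-05) took its processed signal from between 814 and 1630 to between 5900 and 9640. Cd40lg, the gene of its ligand, was not well above background on any array.

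**Figure D2:**
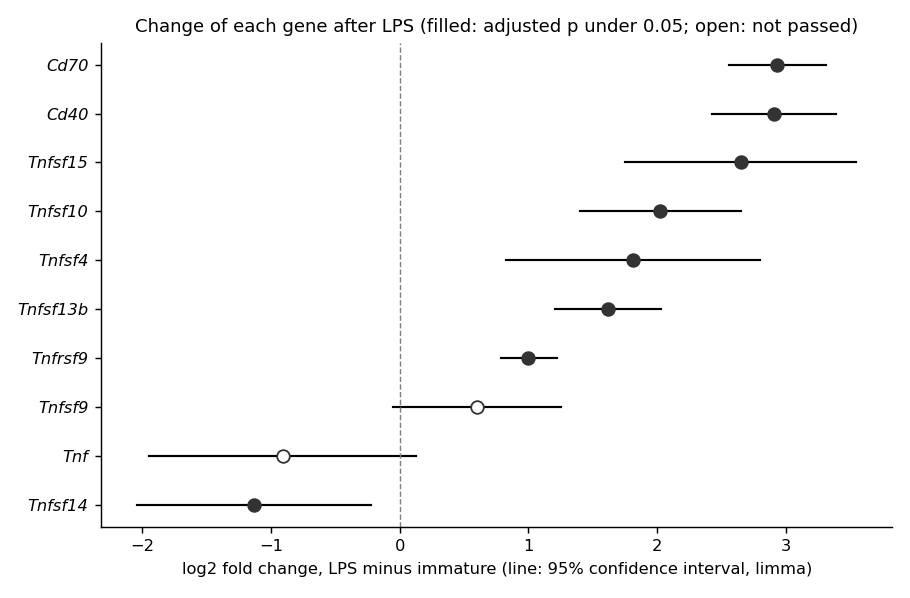
Points give the log2 fold change, LPS minus immature, for each of the 10 genes, and lines its 95% confidence interval from limma with 4 arrays per group. Cd70 and Cd40 lie highest at 2.93 and 2.91, the intervals of Tnfsf9 and Tnf cross 0, and Tnfsf14 lies lowest at -1.13.

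Tnfsf15 encodes TL1A, a costimulator of T cells through the death receptor DR3. It read 0.67, 1.05, 0.38 and 0.88 in immature replicates 1 to 4 and 4.12, 3.98, 3.25 and 2.23 in LPS replicates 1 to 4. The treated arrays kept the order seen for Tnfsf4, with replicates 1 and 2 on top and replicate 4 at the bottom, but all lay more than 1 log2 above the immature arrays. The rise was 2.65 ± 0.39 log2 (SE; 4 arrays a group, limma adjusted p = 0.000663). Tnfrsf25, the gene of DR3, was well above background on 3 of 4 arrays in each group and was not tested.

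Tnfsf10 and Tnfsf13b, both known as interferon-inducible ligand genes of myeloid cells, also rose. Tnfsf10 encodes TRAIL, which triggers apoptosis through death receptors. It read -3.00, -3.01, -4.02 and -3.84 in immature replicates 1 to 4 and -1.38, -1.26, -1.92 and -1.22 in LPS replicates 1 to 4. The immature values, 28.1 to 61.2 in processed signal, lay not far over the dimmest spots that counted as well above background, at -4.99 to -4.33 on those arrays. Its rise was 2.02 ± 0.27 log2 (SE; 4 arrays a group, limma adjusted p = 0.000399), but 1.1 log2 (adjusted p = 3.76e-05) with normexp, a background correction that adds an offset of 50 and so compresses changes of dim spots. Of the TRAIL receptor genes, Tnfrsf10b had 0.10 ± 0.19 log2 (SE) and did not pass. The decoy receptor genes Tnfrsf22 and Tnfrsf23 rose by 1.32 ± 0.20 and 1.44 ± 0.17 log2 (SE; limma adjusted p = 0.000836 and 0.000192). Markers of plasmacytoid dendritic cells, strong makers of interferon, had a summed signal of 128 to 153 on the immature and 277 to 309 on the LPS arrays, with 1 of 5 markers higher, 1 lower and 3 that did not pass. That difference was Bst2, itself known as interferon-inducible, with a mean of 29.9 and 180 in those units, and without Bst2 the sums were 98.5 to 118 and 110 to 119. Siglech, a defining marker, had a mean of 6.59 log2 in the immature and 6.76 in the LPS group and did not pass. Their part in the Tnfsf10 and Tnfsf13b results was not tested.

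Tnfsf13b encodes BAFF, the survival factor of B cells. It read -0.39, -0.61, 0.27 and -0.09 in immature replicates 1 to 4 and 1.53, 1.46, 1.43 and 1.24 in LPS replicates 1 to 4. The treated arrays spanned 0.29 log2 and every one lay above the immature range. The rise was 1.62 ± 0.18 log2 (SE; 4 arrays a group, limma adjusted p = 0.000146). Of the BAFF receptor genes, Tnfrsf13c (BAFF-R) fell by 1.46 ± 0.21 log2 (SE; limma adjusted p = 0.000512) and Tnfrsf13b (TACI) fell by 0.31 ± 0.08 log2 (SE; adjusted p = 0.00978). BAFF-R is best known from B cells. Of 7 B cell markers, Pax5, Blk and Ebf1 were not well above background on any array. Others did give signal: Cd79b passed that filter on 4 immature and 4 LPS arrays, and Ms4a1 on 4 and 2. Cd79b and Ms4a1 were tested and not called, at -0.27 ± 0.40 and -1.49 ± 0.96 log2 (SE; limma adjusted p = 0.588 and 0.217). The summed signal of the 7 markers was 0.790 to 2.82 on the immature and 0.598 to 1.67 on the LPS arrays. The part of B cell RNA in the Tnfrsf13c result was not tested.

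The stretch before the transcript start was available for 6 of the 10 genes, in 8 windows of the RefSeq promoter table (GRCm38.p6). Cd40, Cd70, Tnfsf4 and Tnfsf9 had none. Windows of 250 bases before to 50 after the start were searched on both strands for the NF-kB consensus, for the core of an interferon response element (GAAA and GAAA parted by any 2 bases), and for TTCNNNGAA, the core of a STAT site. Each was found in 1 of the 8 windows, beside 8.46%, 3.44% and 8.30% of all 32841 windows. The NF-kB consensus and TTCNNNGAA were in the second start of Tnfrsf9, and the interferon response core in the second start of Tnfsf13b. These 2 windows are shown because both genes rose and hold a match, which describes the letters and does not show that a factor binds. The 250 bases before each start are at chr4:150927749-150927998 for Tnfrsf9 and chr8:10006383-10006632 for Tnfsf13b, both on the plus strand. Capitals mark a pair of overlapping NF-kB matches at -43 to -33 in Tnfrsf9 and the interferon response core at -16 to -7 in Tnfsf13b. The TTCNNNGAA match, at -136 to -128 in Tnfrsf9, is left in lower case.
Tnfrsf9: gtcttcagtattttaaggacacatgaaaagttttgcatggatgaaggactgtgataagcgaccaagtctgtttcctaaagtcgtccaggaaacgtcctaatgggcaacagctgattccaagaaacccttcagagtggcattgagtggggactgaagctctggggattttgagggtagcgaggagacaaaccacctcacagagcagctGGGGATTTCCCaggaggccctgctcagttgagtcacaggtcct
Tnfsf13b: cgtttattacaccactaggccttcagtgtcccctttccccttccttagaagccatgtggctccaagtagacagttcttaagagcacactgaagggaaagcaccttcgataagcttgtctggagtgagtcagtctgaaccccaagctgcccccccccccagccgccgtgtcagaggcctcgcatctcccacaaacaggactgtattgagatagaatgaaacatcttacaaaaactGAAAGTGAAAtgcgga

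Tnf, the founding cytokine of the family and an early product of LPS-treated myeloid cells, did not pass the test in these overnight samples. It read 3.06, 2.77, 0.95 and 2.06 in immature replicates 1 to 4 and 0.91, 1.00, 1.31 and 1.99 in LPS replicates 1 to 4. The immature arrays covered a 4.32-fold range, with replicates 1 and 2 high and replicate 3 at the level of the lowest treated arrays, and the groups overlapped. The change was -0.91 ± 0.45 log2 (SE; 4 arrays a group, limma adjusted p = 0.120; 95% confidence interval -1.95 to 0.13). The Tnf probe is spotted 10 times on each array, and the SD between its spots was 0.0445 to 0.0674 log2 per array, against an SD between arrays of 0.94 in the immature and 0.49 in the LPS group. The SD between spots was thus far below that between arrays, and the immature SD was larger than that of 98.9% of all tested genes. Without immature replicate 3 the change was -1.33 log2 and passed (limma adjusted p = 0.00954). It was -1.73 log2 with array weights (adjusted p = 0.000341), which gave immature replicate 3 a weight of 0.166 against 3.12 for immature replicate 1. With replicates 1 and 2 of each group averaged it was -0.56 log2 (adjusted p = 0.414).

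Tnfsf14 encodes LIGHT, a ligand of the herpesvirus entry mediator and of the lymphotoxin beta receptor. It read 0.93, 1.03, 1.72 and 0.94 in immature replicates 1 to 4 and -0.71, -0.71, 0.69 and 0.81 in LPS replicates 1 to 4. The groups did not overlap, but LPS replicates 3 and 4 came close to the lowest immature arrays while replicates 1 and 2 lay far below. The fall of 1.13 log2 had an SE of 0.40 (n = 4 per group; limma adjusted p = 0.0382). It no longer passed without any 1 of the 4 immature arrays (adjusted p = 0.0578, 0.0650, 0.0881 and 0.0599 without replicates 1 to 4), nor without LPS replicate 1 (0.0960) or 2 (0.0954). It passed without LPS replicate 3 (-1.36 log2, adjusted p = 0.0259) or 4 (-1.40 log2, adjusted p = 0.0179), and not with replicates 1 and 2 averaged (-0.95 log2, adjusted p = 0.128). The receptor genes Tnfrsf14 and Ltbr did not pass, at 0.50 ± 0.23 and -0.10 ± 0.08 log2 (SE; limma adjusted p = 0.0999 and 0.348).

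Neutrophil markers and most monocyte markers were lower after LPS. They stand beside the 2 ligand genes with a negative change, of which Tnf did not pass. All 9 tested neutrophil markers fell, and their summed signal went from between 746 and 881 to between 250 and 455 in units of the 75th percentile. Of 5 tested monocyte markers 4 fell, and the sum went from between 244 and 351 to between 122 and 175. The other, Cx3cr1, had a positive change of 1.08 ± 0.42 log2 (SE) and did not pass (limma adjusted p = 0.0552). In whole cultures, fewer cells of a type and less RNA per cell cannot be told apart. The part of such cells in the Tnf, Tnfsf14 and Ltb results was not tested.

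Ligand genes of the family form 2 clusters on mouse chromosome 17, with no other protein-coding gene between neighbours in the RefSeq table: Ltb, Tnf and Lta, and further along Tnfsf9, Cd70 and Tnfsf14. Within the second cluster Cd70 rose by 2.93 log2 while the adjacent Tnfsf14 fell by 1.13 and Tnfsf9 on the other side did not pass at 0.60. In the first cluster Ltb, a subunit of the membrane lymphotoxin heterotrimer, fell from 4.56, 4.34, 4.44 and 4.71 in immature replicates 1 to 4 to 2.03, 2.04, 2.15 and 1.45 in LPS replicates 1 to 4. That fall of 2.59 ± 0.16 log2 (SE; 4 arrays a group, limma adjusted p = 7.13e-06) left the groups far apart. Lta, the gene of lymphotoxin alpha, read -0.57, -0.88, -3.57 and -1.67 in immature and -1.42, -2.08, -1.02 and -1.05 in LPS replicates 1 to 4. Its change of 0.28 ± 0.61 log2 (SE) did not pass (limma adjusted p = 0.723), and immature replicate 3 was the lowest array for Lta as for Tnf.

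**Figure D3:**
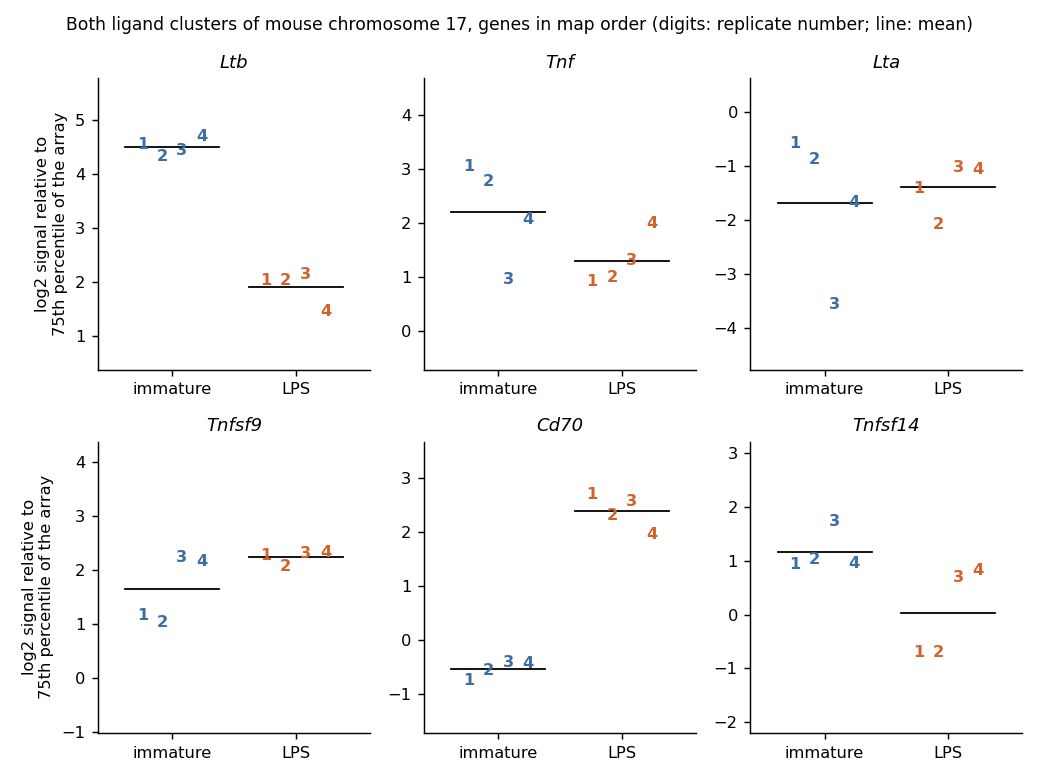
Panels plot the log2 signal relative to the 75th percentile of the array for the genes of each chromosome 17 cluster in map order, with digits for the replicate number and lines for group means (4 arrays per group). Ltb fell in all LPS arrays and Cd70 rose in all, while their neighbours Tnf, Lta and Tnfsf9 overlap between the groups.

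The sizes of the 10 changes were compared in all 45 pairs, as the per-array log2 ratio of 2 genes, with an exact two-sided permutation test. In 24 pairs the ratio reached the smallest p that 4 against 4 arrays allow, 0.0286, and after Benjamini-Hochberg adjustment over the pairs 0 passed (adjusted p = 0.0536 for those 24). With so few arrays the adjusted p depends on how many pairs reach that smallest p, and with normexp 26 did and all 26 passed (exact permutation adjusted p = 0.0495). Cd40 and Cd70 could not be parted, with a difference of -0.02 ± 0.34 log2 (SE, Cd40 minus Cd70; exact permutation adjusted p = 0.971). Tnfsf4 minus Tnfsf15 was -0.84 ± 0.10 log2 (SE; exact permutation adjusted p = 0.0536), and both genes had the same order of LPS arrays. Tnf minus Tnfsf14 was 0.22 ± 0.69 log2 (SE; exact permutation adjusted p = 0.847).

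Beyond these 10, few other ligand genes of the superfamily were measured. Of 10 others listed, 9 had a probe and 4 were tested. Ltb fell, and Tnfsf8, Tnfsf12 and Lta did not pass, with a list median of -0.27 log2. Tnfsf11, Tnfsf18, Cd40lg and Eda were not well above background on any array, and Fasl was above it on LPS replicate 3 alone. Tnfsf13 was not analysed here.

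Of 26 further receptors of the superfamily 18 were tested, and 7 rose, 3 fell and 8 did not pass (median 0.21 log2, beside 0.06 for all tested genes). These are 38.9% higher and 16.7% lower, beside 31.4% and 24.6% of all tested genes. Tnfrsf1b, the receptor TNFR2 that has no death domain, rose by 1.51 ± 0.26 log2 (SE; 4 arrays a group, limma adjusted p = 0.00134), from 1.82 to 2.64 on the immature arrays to 3.15 to 4.20 on the LPS arrays. The death-domain receptor gene Tnfrsf1a (TNFR1) fell by 0.30 ± 0.08 log2 (SE; limma adjusted p = 0.0158). Tnfrsf19, the gene of the orphan receptor TROY and 1 of the 7, was not well above background on any immature array and was on all 4 LPS arrays, at least 3.29-fold higher. It entered the test through the LPS arrays alone, and its fitted p (limma adjusted p = 1.14e-06) rests on immature values below background. With normexp its fitted change was 0.95 log2 in place of 3.85, and with the mean of its probes 2.12 log2 (limma adjusted p = 0.0026). The bound of 3.29-fold sets each dim array at the dimmest spot that counted as well above background. The largest fall was that of Tnfrsf13c, given above with BAFF.

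Of 21 genes of TNF receptor signalling, 15 rose, Traf5 fell and 5 did not pass, with a median of 0.78 log2. The list mixes genes that carry the signal with inhibitors of it, such as Tnfaip3 and Cyld. These are 71.4% higher and 4.76% lower, beside 31.4% and 24.6% of all tested genes. The count of 15 rises was 13 with arrays scaled by their median, by the 75th percentile of bright probes, by quantiles or not at all. It was also 13 with replicates 1 and 2 averaged. Traf1, an adaptor of TNFR2, CD40 and 4-1BB, rose by 2.69 ± 0.09 log2 (SE; 4 arrays a group, limma adjusted p = 7.30e-07), from between 3.79 and 4.0 to between 6.48 and 6.74. Traf4 rose by 1.94 ± 0.34 log2 (SE; limma adjusted p = 0.00159). The fall of Traf5 was 0.34 log2 with an SE of 0.11 (limma adjusted p = 0.0284), its groups overlapped, and leaving out immature replicate 1 or 2, or LPS replicate 1, 2 or 4, ended the call (limma adjusted p = 0.0741, 0.0763, 0.0644, 0.0714 and 0.0548).

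Among 17 genes of TNF processing and mRNA turnover, 7 rose, 3 fell and 7 did not pass, with a median of 0.22 log2. These are 41.2% higher and 17.6% lower, beside 31.4% and 24.6% of all tested genes. Zfp36, which encodes tristetraprolin, a protein that speeds the decay of Tnf mRNA, rose by 1.14 ± 0.38 log2 (SE; 4 arrays a group, limma adjusted p = 0.0329). Leaving out 1 array ended that call for immature replicates 1, 2 and 4 (limma adjusted p = 0.0698, 0.0787 and 0.0525) and for LPS replicates 3 and 4 (0.0842 and 0.0828). The Zfp36 groups overlapped, and the call was also lost with no scaling and with replicates 1 and 2 averaged (limma adjusted p = 0.0591 and 0.0507). Its relative Zfp36l2 fell by 1.42 ± 0.11 log2 (SE; limma adjusted p = 2.06e-05), and Sppl2a, an intramembrane protease that cleaves TNF, rose by 1.1 ± 0.07 log2 (SE; adjusted p = 1.05e-05). Adam17, the sheddase that releases TNF from the surface, rose by 0.32 ± 0.12 log2 (SE; limma adjusted p = 0.0433), and its groups overlapped. Adam10, another gene of the list, fell by 0.59 ± 0.09 log2 (SE; limma adjusted p = 0.000969), with every LPS array below every immature array. The count of 7 rises was 3 with arrays scaled to their median and 2 with no scaling, choices that moved the median of all tested genes from 0.06 to -0.11 and -0.15 log2. The same choices moved the share of higher among all called genes from 56.1% to 38.9% and 35.3%, and left the 7 rises and 1 fall of the 10 genes as they were.

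**Figure D4:**
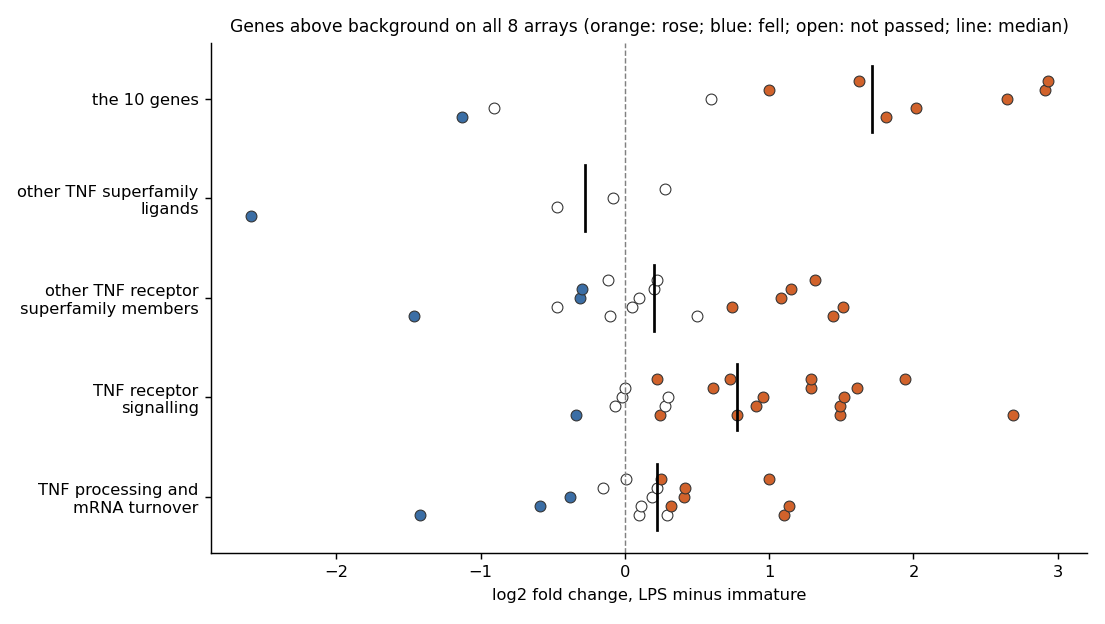
Each point is the log2 fold change, LPS minus immature, of 1 gene well above background on all 8 arrays, grouped by list, orange where it rose, blue where it fell and open where it did not pass, and the black line is the median of the points. The 10 genes reach from -1.13 to 2.93 log2, and the signalling genes lie mostly to the right of 0.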

How the data were processed

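Total RNA of 8 samples, 4 immature and 4 LPS-treated, was labelled with Cy3 and read on single-colour Agilent arrays, per the labels. Per the submitters' processing notes the software was Agilent Feature Extraction 11.0.1.1. The deposited processed signal is an intensity that per the file headers was background-subtracted and spatially detrended, with no scaling between arrays stated, and the authors' files flag spots that are outliers, saturated or well above background.

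Outlier spots were left out, log2 signals were averaged over the spots of a probe, and each array was then centred on the 75th percentile over its spots outside the controls. Of 55681 probes 27509 matched 1 symbol by RefSeq transcript accession (GRCm38.p6). Naming by a gene name column and normexp on mean signals had been planned; accessions and median signals took their place. The array design names an older build, so no probe or gene positions are given, and promoter windows and gene order are those of the RefSeq tables. The brightest probe stood for a gene, and a gene was tested if 1 group had the probe well above background on its 4 arrays, which left 12707 genes. Groups were compared with limma 3.58.1 (R 4.3.3), two-sided, with Benjamini-Hochberg adjustment over all tested genes. Pairs of genes were compared with exact permutation tests. Figures used matplotlib 3.10.9 in Python 3.11.15.

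The genes and lists were chosen with earlier results of these data known. Named were the 10 genes, from each of 4 pathway lists the 2 largest changes in the commoner direction and the 1 largest in the other, and for each of the 10 the gene with the most similar profile. Receptors of the ligands and neighbouring ligand genes were named as partners outside that rule, with their values known, as were Tnfrsf1a, Adam17 and Adam10. Marker lists stood for conventional and plasmacytoid dendritic cells, stromal cells, lymphocytes (B, T and natural killer), granulocytes including mast cells, monocytes and macrophages. Alternatives changed the scaling, background correction, filter, probes, array weights, replicates and pairing. Those for the pairs of genes, the median of all genes and the named genes outside the 10 were chosen after seeing the data.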

Additional observations from a re-analysis of the deposited data

Results flagged for a closer look

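In 39 groups of 4 arrays, of the 10 genes and the other named pathway genes, the gap of the farthest array to its nearest neighbour was divided by the whole range of the group, and a ratio above Dixon's 95% critical value for 4 arrays marked an array far from the others, which chance gives in about 1 of 20 groups; 4 ratios passed. Tnfsf4 in immature replicate 3, at -1.45 against -0.90 for the nearest array, had a ratio of 0.944. Tnfsf14 in the same array, the highest at 1.72 against 1.03, had 0.878. Zfp36l2 was lowest in immature replicate 4, at 4.99 against 5.23 (0.847), and highest in LPS replicate 2, at 4.02 against 3.71 (0.863). Without immature replicate 3 the rise of Tnfsf4 was 1.67 log2 (limma adjusted p = 0.0190) and Tnfsf14 fell by 0.95 log2 (adjusted p = 0.0881).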

How the results depend on the processing

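The rises of Cd40, Cd70, Tnfsf4, Tnfsf10, Tnfsf13b, Tnfsf15 and Tnfrsf9 kept their direction and passed in all 20 alternatives. Tnfsf14 stayed negative in all 20 (-1.40 to -0.89 log2) but missed the threshold in 7, and Tnf and Tnfsf9 each missed it in 18. Without each array in turn, 7 to 8 of the 10 genes were called higher and 0 to 1 lower, 0 to 1 genes of TNF receptor signalling lower, and 4 to 8 genes of TNF processing and mRNA turnover higher. With array weights 2 of the 10 genes were called lower, as were 6 other receptors and 2 signalling genes. With replicates 1 and 2 averaged, limma called 0 of the 10 genes lower (0 at an unadjusted p under 0.05), 0 signalling genes lower (0 unadjusted) and 3 processing genes higher. Scaling to the array median called 2631 genes of all tested higher, 2 other ligands lower and 3 processing genes higher. With no scaling these were 2428, 2 and 2, with 5 other receptors and 3 signalling genes lower. No filter on dim probes called 7646 genes and 1 other ligand higher. Tested probe by probe, 6767 probes were higher and 6155 lower, with 2 probes of other ligands lower, and the mean of a gene's probes also gave 2 other ligands lower. With normexp, which used the raw median intensity of spot and background, 26 of the 45 pairs passed. Without each array in turn 0 pairs passed by the exact permutation test (18 to 25 at an unadjusted p under 0.05), an alternative chosen after seeing the data, and with replicates 1 and 2 averaged that test allows no p under 0.1.

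Deviations of same-numbered arrays from their group means correlated at 0.19, 0.02, 0.05 and -0.10 over all tested genes. Not every array correlated best with its own number. With so few arrays these values cannot tell whether same-numbered samples shared an animal or culture. With the replicate number as a block, 7 of the 10 genes were higher and 1 lower, and limma called 0 signalling genes lower (1 at an unadjusted p under 0.05), Traf5 having lost its call (adjusted p = 0.0585). The block changed no call among the 10 genes. Naming probes by a gene name column was not run, as the files used here give accessions.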

Other observations

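For each of the 10 genes the tested gene with the most similar profile was found as the smallest mean absolute difference between values centred over the 8 arrays. The measure mixes the change after LPS with the differences between replicates and describes these 8 arrays alone. Tnfrsf9 was closest to Atxn7 (0.04 log2), Tnfsf13b to Auh (0.08) and Tnfsf9 to Cercam (0.09). Cd70 was closest to Mmp25 (0.13), a membrane metalloproteinase gene, Tnfsf14 to Ipcef1 (0.17), and Cd40 to Acod1 (0.18), the gene of the enzyme that makes itaconate. Tnfsf10 was closest to Olfml2b (0.19), and Tnf to Bysl (0.21), a gene of ribosome assembly. Plppr4 was at 0.27 from Tnfsf15 and Gm13889 at 0.29 from Tnfsf4, the widest of the 10 distances.

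Other cell type markers were read on the same arrays, as summed signals in units of the 75th percentile. The natural killer genes Ncr1, Eomes and Gzma were not well above background on any array, both tested markers of that list fell, and the sum of its 6 genes was 0.701 to 0.784 on the immature and 0.449 to 0.538 on the LPS arrays. Klrb1c, 1 of the tested markers, entered the test through the immature arrays alone. It was not well above background on any LPS array, and at least 1.35-fold lower there. Of 6 tested macrophage markers 3 fell and 1 rose (358 to 431 against 327 to 386), with Cd163 and Vsig4 not well above background on any array. The marker that rose was Adgre1, with a mean of 45.6 and 87.1. Without Adgre1 the sums were 315 to 381 and 254 to 295. Of 4 tested mast cell and basophil markers 3 fell and Kit rose (4.76 to 7.92 against 6.24 to 8.21), and without Kit the sums were 3.45 to 6.26 and 0.683 to 1.99. Fcer1a, which fell, entered the test through the immature arrays alone, being well above background on 3 of the 4 LPS arrays. Of 4 tested stromal markers Pdgfrb, Dcn and Cdh11 rose (0.227 to 0.444 against 0.834 to 1.64). Dcn and Cdh11 entered the test through the LPS arrays alone, being well above background on 1 and 2 of the 4 immature arrays, and without Dcn the sums were 0.218 to 0.364 and 0.47 to 0.943, and Pdgfra was not well above background on any array. The part of these cells in the results on the 10 genes was not tested.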
